A study of Rattus norvegicus with 8 samples.

Results

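Arginine handling in the adrenal gland of the newborn rat was examined through 10 genes: Slc7a1, Ass1, Asl, Arg1, Arg2, Nos1, Nos3, Ddah1, Odc1 and Oat. They are 10 of 10411 genes named on the array, and all 13 probe sets that carry 1 of these symbols alone in the platform annotation were taken, of 15866 that are no controls. The genes were chosen by name from the pathway around Slc7a1, a gene selected on its difference between hypoxic and normoxic glands in earlier results from the same 8 arrays. Every difference between the groups given for these genes is therefore a description of the pools and supports nothing by itself. The hypoxic glands came from pups kept with their dams in 12% O2 from birth to postnatal day 7. The normoxic glands came from pups of the same age kept in room air with freely feeding dams. There were 4 hypoxic and 4 normoxic samples, and in all of them the capsule had been stripped off and 24 glands were pooled per sample. Strain, sex and the spread of litters over the pools are not given in the labels, and each pool was read on 1 array with 1 colour.

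Arginine is taken up through cationic amino acid transporters, of which the Slc7a1 product, CAT-1, is the widespread one, or is rebuilt from citrulline by argininosuccinate synthase (Ass1) followed by argininosuccinate lyase (Asl). The nitric oxide synthases turn arginine into nitric oxide and citrulline, so that Ass1 and Asl close a cycle with them. The arginases turn it into urea and ornithine, which Odc1 leads into polyamines and Oat leads towards proline and glutamate. Asymmetric dimethylarginine, an inhibitor of the synthases that is made in the body, is broken down by Ddah1. Nitric oxide is known in the adrenal gland as a regulator of blood flow, of steroid production and of catecholamine release.

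Promoters of Slc7a1, Ass1 and Ddah1 are shown, because each has a probe set that was higher in every hypoxic pool than in any normoxic pool, for Slc7a1 1 of its 3. The sequences are from RefSeq in rat assembly GRCr8, where 8 of the 10 genes had an entry and Arg1 and Arg2 did not, and each runs from 250 bases before the annotated start to 50 after it. Capitals mark matches, on either strand, to ACGTG and GCGTG, which are core letters of the hypoxia response element, and to TGATGNAA, core letters of the amino acid response element bound by ATF4. The stretches are chr12:11664238-11664537 for Slc7a1, chr3:35149480-35149779 for Ass1 and chr2:237327562-237327861 for Ddah1, all on the plus strand. The start used for Ass1 lies inside the full span of the gene in the same assembly.
Slc7a1: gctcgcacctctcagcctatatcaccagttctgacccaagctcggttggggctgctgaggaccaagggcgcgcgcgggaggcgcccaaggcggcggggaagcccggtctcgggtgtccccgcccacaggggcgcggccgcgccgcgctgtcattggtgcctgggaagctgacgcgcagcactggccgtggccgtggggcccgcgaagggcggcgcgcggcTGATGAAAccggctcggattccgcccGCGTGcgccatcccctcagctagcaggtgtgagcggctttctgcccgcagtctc
Ass1: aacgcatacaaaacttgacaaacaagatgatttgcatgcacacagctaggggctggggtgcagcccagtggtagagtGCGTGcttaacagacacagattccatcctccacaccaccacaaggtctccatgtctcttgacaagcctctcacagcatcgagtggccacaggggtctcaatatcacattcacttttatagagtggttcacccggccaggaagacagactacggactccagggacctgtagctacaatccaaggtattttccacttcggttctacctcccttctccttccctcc
Ddah1: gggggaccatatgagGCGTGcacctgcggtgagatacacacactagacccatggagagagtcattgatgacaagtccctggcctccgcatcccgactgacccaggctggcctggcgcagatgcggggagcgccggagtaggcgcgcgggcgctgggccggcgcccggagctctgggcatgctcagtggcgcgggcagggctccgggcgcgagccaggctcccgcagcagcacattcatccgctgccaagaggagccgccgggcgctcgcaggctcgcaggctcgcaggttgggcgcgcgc

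The Slc7a1 window held TGATGNAA beginning 30 bases before the start, and 3.98% of 33469 rat promoter windows of the same 300 bases held it. It was the sole match to this motif among the 8 windows. GCGTG began 4 bases before the start in Slc7a1, 173 bases before it in Ass1 and 235 bases before it in Ddah1. A match to ACGTG or GCGTG was present in 41.6% of all windows, and among the other genes it was also present in Asl, Nos1, Odc1 and Oat. ACGTG overlaps the E-box CACGTG, which none of the 8 windows contained and 6.42% of all windows did. Such matches are letters in a window and not sites of binding.

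Intensities are in arbitrary units, scaled by the authors to a common mean per array. Array medians lay between 228.6 and 249.2. The 27 probe sets for bacterial genes that were not expected to find a target serve as background, with a median of 5.4, 95% of their values up to 46.6 and none above 83.5. Log2 differences are hypoxic minus normoxic on log2(intensity + 16), fitted with limma over 11106 probe sets whose mean on that log2 scale reached a level equal to an intensity of 95.2, and this scale understates the change of dim probe sets. Of the 13 member probe sets 11 reached that level, and the third probe set of Slc7a1 and that of Nos3 did not. In RNA from pooled, decapsulated glands fewer cells of a type and less RNA per cell cannot be told apart.

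Slc7a1, the arginine, lysine and ornithine transporter, had 3 probe sets made from the same transcript record, and 2 of them were bright. The second of them (1368392_at) measured 2001.3, 1726.1, 1945.9 and 2025.3 in hypoxic pools 1 to 4, against 1299.8, 1191.7, 1253.3 and 1089.7 in normoxic pools 1 to 4. Every hypoxic pool lay above every normoxic pool. The means were 1925 ± 136 in hypoxic and 1209 ± 90.8 in normoxic glands (SD, n = 4 pools each), a ratio of 1.59 and a log2 difference of 0.66 with a standard error of 0.094. The first of them (1368391_at) measured 1842.3, 1793.2, 1697.0 and 2022.6 in hypoxic pools, against 1738.0, 1403.2, 1230.4 and 1460.7 in normoxic pools. Here normoxic pool 1 reached into the hypoxic range and the other normoxic pools stayed below it. The log2 difference was 0.34, with a 95% interval from 0.09 to 0.58 that is not adjusted for the number of probe sets, and in limma its adjusted p was 0.392, which does not pass 0.05.

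The bright probe sets of Slc7a1 shared the direction. Within each array, the second minus the first was 0.07 ± 0.11 on the log2 scale in hypoxic pools and -0.26 ± 0.21 in normoxic pools (SD, n = 4 each), and the groups overlapped. The third probe set (1387167_at) was dim, at 64.4 ± 28.1 in hypoxic and 89.8 ± 27.0 in normoxic pools, with values from 41.3 to 104.6 in hypoxic and from 53.2 to 115.4 in normoxic pools, in part within the range of the bacterial probe sets. Its log2 difference, from a fit without the brightness filter, was -0.42 with an interval from -1.03 to 0.20.

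Ass1, which joins citrulline to aspartate and is known as the slow step in rebuilding arginine, had the largest log2 difference among the members. Its probe set (1370964_at) measured 227.9, 287.4, 335.0 and 400.7 in hypoxic pools 1 to 4, against 95.4, 139.8, 172.1 and 153.1 in normoxic pools 1 to 4. No pool of either group reached the values of the other. The means were 313 ± 73.2 in hypoxic and 140 ± 32.6 in normoxic glands (SD, n = 4 pools each), a ratio of 2.23. The log2 difference of 1.07 had a standard error of 0.20 and an interval from 0.64 to 1.51, and was between 0.92 and 1.21 with any 1 pool left out. It had rank 6 among all tested probe sets ordered by log2 difference, and in limma its adjusted p was 0.0725, which does not pass 0.05.

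Measures of cell content and of RNA are given beside Ass1, since some of them, once the values were seen, stood in its order within one of the groups. With 4 pools in a group and several measures looked at, such a match can arise by chance, so nothing is read from the order. The summed intensity of 6 chromaffin cell markers (Th, Dbh, Pnmt, Ddc, Chga and Slc18a1) was 30599.3, 34812.0, 42711.4 and 44364.0 in hypoxic pools 1 to 4 and 26538.3, 34955.1, 36820.0 and 30213.6 in normoxic pools 1 to 4. This sum stood in the same order as Ass1 in the hypoxic pools and in another order in the normoxic pools. The log2 differences of all 6 were positive (median 0.30), and 0 of them passed an adjusted p of 0.05. With their mean as a covariate, in a fit added after the data were seen, the log2 difference of Ass1 was 0.65 (limma, adjusted p = 0.228; over all settings the adjusted p ran from 0.0164 to 0.249). Signal at the 5' end of beta-actin divided by that at its 3' end, which drops as RNA degrades, was 0.249, 0.491, 0.713 and 0.528 in hypoxic pools 1 to 4 and 0.413, 0.598, 0.744 and 0.674 in normoxic pools 1 to 4. This ratio stood in the same order as Ass1 in the normoxic pools and in another order in the hypoxic pools. With it as a covariate the difference was 1.26 (limma, adjusted p = 0.0164). The same ratio for Gapdh was 0.618, 0.602, 0.556 and 0.659 in hypoxic pools 1 to 4 and 0.639, 0.587, 0.731 and 0.701 in normoxic pools 1 to 4, not in the order of Ass1 in either group, and with it the difference was 1.20 (limma, adjusted p = 0.132). Of 8 liver and kidney markers, tissues in which Ass1 is abundant, 4 were above 0 and 4 below 0, and their sum ran from 787.6 to 3013.4 in hypoxic and from 785.3 to 1855.9 in normoxic pools. None was at 0, but Apoa1, Umod and Kap lay on average below the 95th percentile of background. The part of these tissues in the Ass1 values was not tested.

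Asl, which releases arginine from argininosuccinate in the next step, did not show such a separation. Its first probe set (1368916_at) measured 234.1, 200.6, 235.8 and 289.7 in hypoxic pools, against 255.9, 224.3, 192.6 and 231.7 in normoxic pools. The groups overlapped, with a log2 difference of 0.08 and an interval from -0.24 to 0.39. A second probe set (1367754_s_at) carries the symbol Asl in the platform annotation, but its transcript record belongs to Hnrnpab in the reference gene table. It measured 193 ± 37.3 in hypoxic and 210 ± 20.4 in normoxic pools (SD, n = 4 each; log2 -0.13), so its reading as Asl is uncertain. Within each array Ass1 minus the first Asl probe set was 0.34 ± 0.25 on the log2 scale in hypoxic pools and -0.65 ± 0.47 in normoxic pools. The lowest hypoxic value of that difference was -0.04 and the highest normoxic one was -0.15, so all hypoxic pools lay above all normoxic pools.

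**Figure D1:**
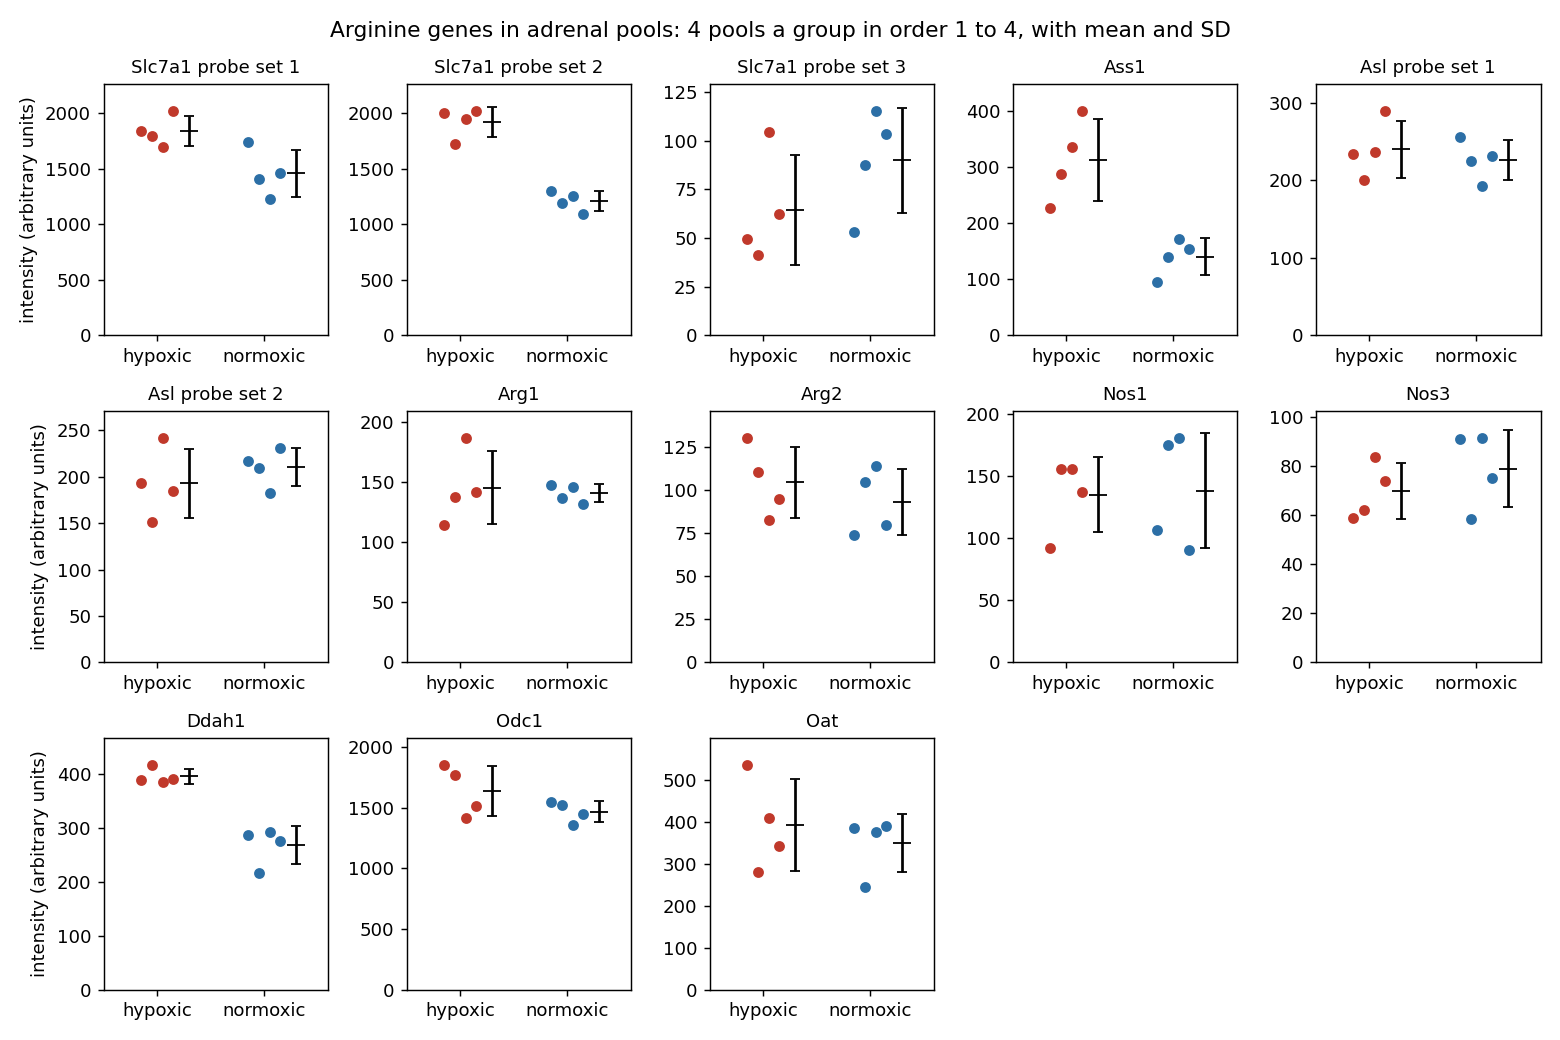
Intensity in arbitrary units of each of the 13 member probe sets, with 1 point for each pool (hypoxic left, normoxic right, pools 1 to 4 from left to right within a group) and the mean with its SD in black. Hypoxic points lie above all normoxic points for the second Slc7a1 probe set, Ass1 and Ddah1, and the groups overlap in the other 10 panels.

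Ddah1, the hydrolase for dimethylarginine, was the other gene with separate groups. Its probe set (1387111_at) measured 388.5, 416.1, 384.7 and 390.1 in hypoxic pools, against 286.3, 216.6, 292.7 and 275.6 in normoxic pools. The hypoxic pools lay close together, and the lowest of them, 384.7, stood above the highest normoxic pool, 292.7. The means were 395 ± 14.4 in hypoxic and 268 ± 34.8 in normoxic glands (SD, n = 4 pools each), a ratio of 1.47. The log2 difference was 0.54 with an interval from 0.28 to 0.81, and ran from 0.45 to 0.63 over 20 other settings. In limma its adjusted p was 0.159, which does not pass 0.05. Ddah2, the second enzyme of this kind, measured 428 ± 57.7 in hypoxic and 424 ± 96.0 in normoxic glands (log2 0.03).

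The nitric oxide synthases Nos1 and Nos3 overlapped between the groups. Nos1, the neuronal enzyme (1369015_at), measured 92.1, 155.5, 155.3 and 137.3 in hypoxic pools, against 106.7, 175.2, 180.8 and 90.7 in normoxic pools. Values spread widely in both groups and overlapped throughout, and the log2 difference was -0.00 with an interval from -0.51 to 0.51. Its sign turned under other scalings (0.05 with quantile normalization, 0.03 with arrays centred on their median), so no direction is given. With the chromaffin mean as a covariate the Nos1 difference was -0.46 (limma, adjusted p = 0.484). Nos3, the endothelial enzyme (1371166_at), measured 58.9, 62.0, 83.6 and 73.9 in hypoxic pools, against 90.7, 58.2, 91.4 and 74.9 in normoxic pools. Hypoxic pools 1, 2 and 4 and normoxic pools 2 and 4 lie within the range of the bacterial probe sets, and a difference in Nos3 was not detectable at this signal (log2 -0.14, interval -0.56 to 0.28, from the fit without the filter). Of 10 measured endothelial markers 4 were above 0 and 6 below 0, with sums from 6080.2 to 7008.0 in hypoxic and from 5964.6 to 6911.2 in normoxic pools. Nos2, the inducible enzyme and no member, measured 303 ± 74.1 in hypoxic and 281 ± 176 in normoxic glands.

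The arginases did not differ detectably. Arg1, the cytosolic form known from liver and from macrophages (1368266_at), measured 114.3, 137.6, 186.5 and 141.8 in hypoxic pools, against 147.4, 136.2, 146.0 and 131.9 in normoxic pools. The normoxic pools lay between the lowest and the highest hypoxic pool. The log2 difference was 0.03 with an interval from -0.32 to 0.37. Macrophage markers ran otherwise, with 5 of 6 measured genes below 0, 0 called, and sums from 1494.4 to 1914.8 in hypoxic and from 1998.3 to 2231.7 in normoxic pools. Arg2, the mitochondrial form (1368672_at), measured 130.1, 110.4, 82.4 and 94.5 in hypoxic pools, against 73.7, 104.4, 113.8 and 79.5 in normoxic pools, just above the brightness filter. The groups overlapped, with a log2 difference of 0.15 and an interval from -0.27 to 0.56.

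The genes of the ornithine branches overlapped between the groups. Odc1, which makes putrescine from ornithine (1370163_at), measured 1851.5, 1772.2, 1417.3 and 1513.8 in hypoxic pools, against 1549.0, 1518.8, 1355.0 and 1446.8 in normoxic pools. Hypoxic pools 1 and 2 lay above all normoxic pools and hypoxic pools 3 and 4 among them. The log2 difference was 0.15 with an interval from -0.08 to 0.38. Oat, the mitochondrial aminotransferase of ornithine (1367729_at), measured 535.1, 280.6, 409.5 and 341.7 in hypoxic pools, against 385.0, 244.9, 374.3 and 390.5 in normoxic pools. Hypoxic pool 1 was the highest of all and normoxic pool 2 the lowest, and the log2 difference of 0.15 had an interval from -0.29 to 0.58. It was -0.01 without hypoxic pool 1 and -0.0075 without normoxic pool 2.

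**Figure D2:**
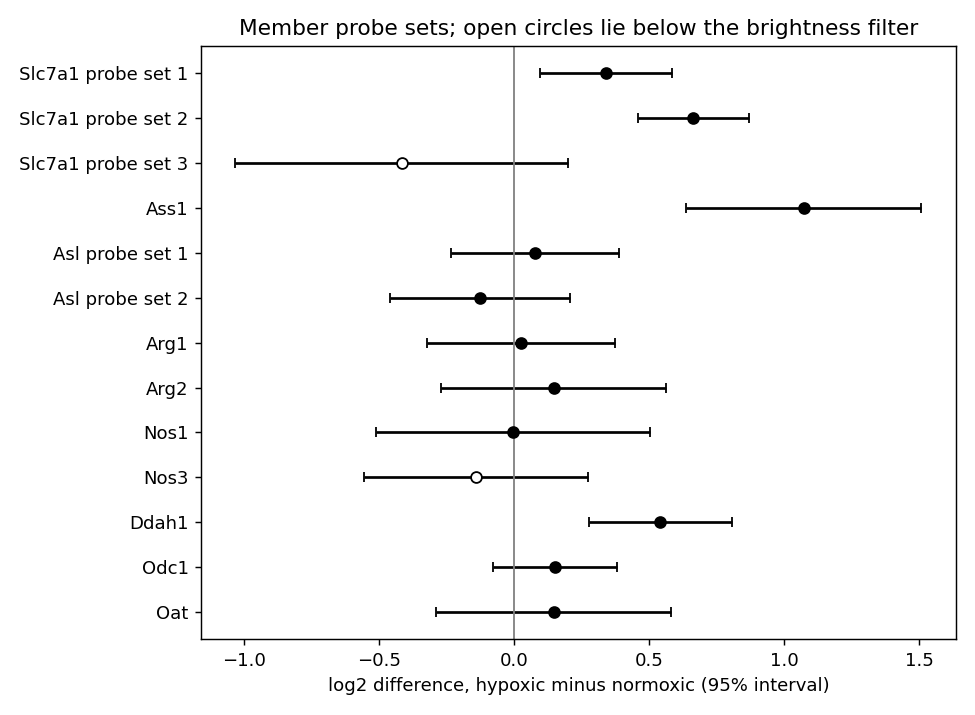
Log2 difference (hypoxic minus normoxic) of each member probe set with its 95% interval from limma, with filled circles for probe sets above the brightness filter and open circles for those below it. The intervals of Ass1, Ddah1 and the first and second Slc7a1 probe sets lie above 0, and those of the other 9 probe sets include 0.

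Against the whole array, 1 of the 11 member probe sets tested passed an adjusted p of 0.05 in limma, the second of Slc7a1, where 0.180% of all 11106 probe sets passed in either direction and 0.117% as higher. That gene led to the choice of the others, so nothing is read from the count. An unadjusted p under 0.05 in limma was found for 4 of the 11, all higher, among them the first and second of Slc7a1. Of all 11106 probe sets 8.64% had such a p in either direction, and 462 had it as higher. The hypoxic values lay wholly above the normoxic ones for 3 of the 11, where 2.76% of all probe sets did so, and wholly below for 0, where 2.64% did so. The median log2 difference of the 11 was 0.15 and that of all tested probe sets was -0.02. With any 1 pool left out, the difference stayed between 0.62 and 0.72 for the second Slc7a1 probe set and between 0.26 and 0.43 for the first. Whether the second passed the adjusted threshold depended on single pools. Of the member probe sets, 0 passed without hypoxic pool 2, 3 or 4 or without any 1 normoxic pool. Without hypoxic pool 1, 2 passed, the second of Slc7a1 and Ass1. The count was also 0 without the brightness filter, without the variance trend and with the Gapdh ratio or the chromaffin mean as a covariate. The second Slc7a1 probe set still differed by 0.67 with the Gapdh ratio and 0.65 with the chromaffin mean. With the probe sets of a gene averaged the count was 0 too, and the Slc7a1 difference was 0.50 (limma, adjusted p = 0.0726).

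The wider arginine pathway was examined through 73 further genes in 7 roles, of which 58 had a probe set named for them alone and 46 passed the brightness filter at their brightest probe set. Of these 46, 0 passed an adjusted p of 0.05 in limma and 0 had an unadjusted p under 0.05, against the 8.64% of all probe sets. The median log2 difference was 0.01, with 25 genes above 0 and 21 below, and the hypoxic and normoxic values overlapped for every one of the 46. The widest differences were 0.31 for Nos2 and -0.34 for Prmt3, a methyltransferase of arginine residues. A dimmer probe set of Oaz2, an antizyme that restrains ornithine decarboxylase, was the 1 of 54 tested probe sets with an unadjusted p under 0.05, at 659 ± 123 in hypoxic and 948 ± 235 in normoxic pools (log2 -0.50, adjusted p = 0.430). Its brighter probe set differed by -0.09.

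None of the other transport genes passed the test. Of 9 tested transport genes 4 were above 0 and 5 below, with a median of -0.02. Slc25a15, which carries ornithine into mitochondria, measured 315 ± 49.96 in hypoxic and 266 ± 21.0 in normoxic glands (SD, n = 4 pools each; log2 0.22, limma adjusted p = 0.699), and Slc7a5, a carrier of large neutral amino acids, 229 ± 59.0 and 257 ± 20.7 (log2 -0.19, adjusted p = 0.823). Slc7a2, the second cationic transporter, was below the filter at 75.0 ± 32.4 in hypoxic and 49.2 ± 24.3 in normoxic glands. The partner chain gene Slc3a2 measured 2628 ± 697 in hypoxic and 2407 ± 234 in normoxic glands (log2 0.09). The liver enzymes that feed the urea cycle read within the range of the bacterial probe sets: Otc measured 4.70 ± 0.41 in hypoxic and 4.85 ± 0.66 in normoxic pools, and Cps1 61.0 ± 12.7 and 67.5 ± 7.39. Glud1, the glutamate dehydrogenase gene, measured 1011 ± 47.4 and 967 ± 212 (log2 0.09, and 0.10 on its other probe set).

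None of the further genes of nitric oxide synthesis, control and signalling passed the test. Of 12 tested genes of synthesis, cofactor supply and control, 10 were above 0 and 2 below, with a median of 0.05. These genes were not sorted by whether they promote or restrain synthesis. Gch1, which opens the synthesis of the cofactor tetrahydrobiopterin, measured 528 ± 28.2 in hypoxic and 467 ± 64.6 in normoxic glands (log2 0.18, and -0.15 on the dimmer probe set). Prmt2 measured 713 ± 150 in hypoxic and 601 ± 57.4 in normoxic glands (log2 0.22), and Prmt3 86.9 ± 20.7 and 113 ± 19.4. The chains of soluble guanylyl cyclase, the receptor of nitric oxide, measured 1111 ± 143 in hypoxic and 1209 ± 93.0 in normoxic glands for Gucy1a1 (log2 -0.13, and -0.26 on its dimmer probe set) and 219 ± 49.1 and 258 ± 17.7 for Gucy1b1 (log2 -0.25, and 0.05 on its other probe set).

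None of the polyamine genes passed the test either. Of 12 tested genes 4 were above 0 and 8 below, with a median of -0.02 and a range from -0.28 for Sat2 to 0.13 for Eif5a, the factor that carries hypusine made from spermidine. Sat1, which acetylates spermidine, measured 9452 ± 526 in hypoxic and 9189 ± 1258 in normoxic glands (log2 0.05). The antizyme gene Oaz1 measured 9931 ± 473 and 10054 ± 687 (log2 -0.02). On the proline side Aldh18a1 differed by 0.14 and Aldh4a1 by -0.01, whose sign turned to 0.03 with arrays centred on their median and to 0.0019 with quantile normalization. Among other uses of arginine the creatine transporter gene Slc6a8 measured 1019 ± 162 in hypoxic and 855 ± 199 in normoxic glands (log2 0.27, and 0.01 on its dimmer probe set), and the brain-type creatine kinase gene Ckb 244 ± 28.8 and 307 ± 60.0 (log2 -0.30, limma adjusted p = 0.641).

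**Figure D3:**
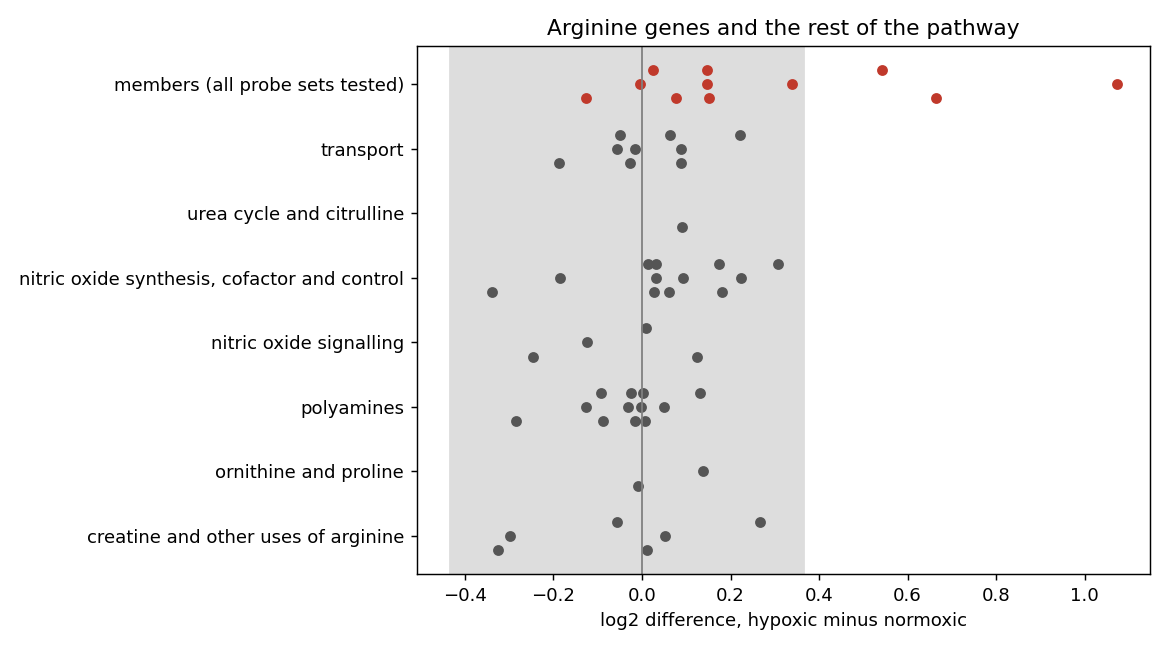
Log2 difference (hypoxic minus normoxic) of the 11 tested member probe sets in red and of 46 further pathway genes at their brightest tested probe set in grey, 1 point each, by role. The shaded band holds the middle 95% of all 11106 tested probe sets, from -0.43 to 0.37: all 46 further genes lie inside it, and Ass1, the second Slc7a1 probe set and Ddah1 lie to its right.

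The genes whose values followed those of the second Slc7a1 probe set most closely were sought over the 8 pools among 9294 tested probe sets with 1 gene symbol. Likeness was the root mean square difference between log2 values centred on each probe set's mean, and it favours genes with a difference of the same size. The nearest were Dpp4, a peptidase of the cell surface (0.097), Gaa, the lysosomal glucosidase (0.11), Map1b, a microtubule protein of neurons (0.12), the granule protein gene Scg3 (0.12) and Ttc39a (0.13). Dpp4 measured 283.2, 227.9, 303.5 and 284.1 in hypoxic pools 1 to 4, against 176.4, 168.5, 204.5 and 164.5 in normoxic pools 1 to 4. Its groups do not overlap, but genes near a probe set with separate groups were sought, so nothing is read from this. The same measure was 0.16 for Ddah1, 0.22 for the first Slc7a1 probe set and 0.37 for Ass1.

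The labelled tissue was checked by its markers, and none of the 6 steroid cell genes Star, Cyp11a1, Cyp21a1, Hsd3b1, Fdx1 and Scarb1 was within the range of the bacterial probe sets. Their sum ran from 82338.3 to 124232.2 in hypoxic and from 84268.7 to 112878.6 in normoxic pools. Adipose markers, 9 of 9 below 0 and 0 called, summed to between 5205.4 and 11198.0 in hypoxic and between 5503.7 and 14396.3 in normoxic pools, and red cell markers, 4 of 4 above 0 and 0 called, to between 18570.3 and 28663.7 and between 17787.7 and 20622.7. Of the red cell markers, Ahsp lay below the brightness filter with a log2 difference of only 0.0024, and Hbb, by far the brightest, made up most of the sum. Capsule and outer cortex markers summed to between 3370.4 and 4550.5 in hypoxic and between 2902.5 and 4755.3 in normoxic pools, and Schwann cell and neuron markers to between 1433.5 and 1985.1 and between 1158.2 and 1655.3. The part of these cells in the differences of Slc7a1 and Ddah1 was not tested, beyond the fits with the adipose or the chromaffin mean as a covariate. With the adipose mean the first Slc7a1 probe set differed by 0.39, the second by 0.69 and Ddah1 by 0.57. With the chromaffin mean the first Slc7a1 probe set differed by 0.45, the second by 0.65 and Ddah1 by 0.61.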

How the data were processed

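Per the labels, total RNA of pooled, decapsulated glands was made into biotin-labelled cRNA. The deposited values are intensity per probe set, not on a log scale, and the labels do not name the software that made them. Means trimmed by 2% at each end were 500.1 on every array, so the authors had scaled the intensity values to a common mean. Analysis used log2 of the intensity plus 16, with a floor of 1 on the intensity and no further normalization. On that scale the array medians spanned 0.117. Probe sets below the 30th percentile of mean log2 value were left out. limma 3.58.1 in R 4.3.3 (lmFit, eBayes with a variance trend) compared hypoxic and normoxic pools with a two-sided test, and p-values were adjusted over the 11106 probe sets by Benjamini and Hochberg. Tables and plots used Python 3.11.15, pandas 2.3.3 and matplotlib 3.10.9.

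Gene names came from the platform annotation, checked against the RefSeq gene table of assembly GRCr8: 12783 of 15866 probe sets had 1 symbol, 312 several and 2771 none, and 12748 of those with 1 matched a gene ID. A gene of the wider lists was represented by its brightest probe set. The members and lists were chosen with earlier results of these data known. Besides all members, the text names the 2 genes with the lowest p in each role, the 5 genes most like Slc7a1 and the markers. The role of urea cycle and citrulline had only 1 tested gene, Glud1. Further pathway genes with a known role were named after their values were seen. The limma fit of the main comparison was tested on simulated data with independent noise at each probe set. The other settings, the RNA ratios and the likeness measure were not tested in this way. No pool was left out of the main comparison. Pools are separate samples per the labels. Each limma p-value sets the difference between the groups against the spread between pools, moderated by the variance trend over all tested probe sets. The number of arrays limits the precision. The alternatives are named in the closing section.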

Additional observations from a re-analysis of the deposited data

Results flagged for a closer look

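In a comparison of each group's highest and lowest pool with the others, made for 56 sets of 4 values, 2 pools stood apart, where chance alone sets 1 in 20 such sets apart. Normoxic pool 2 measured 244.9 for Oat, well below the nearest normoxic pool at 374.3. Normoxic pool 1 measured 440.2 for Aldh18a1, the enzyme that opens proline synthesis from glutamate, above the nearest normoxic pool at 340.6.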

How the results depend on the processing

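Besides the settings given with the results, the comparison was run with an offset of 1 and of 64 in place of 16, without the brightness filter, without the variance trend, with quantile normalization, with arrays centred on their median, with the 5' over 3' ratio of Gapdh or of beta-actin or the adipose mean as a covariate, with the replicate block, with each pool left out and with the probe sets of a gene averaged, and, added after the data were seen, with the chromaffin mean as a covariate. The 20 probe sets that passed an adjusted p of 0.05 became 0 without the filter, without the trend and with the Gapdh ratio or the chromaffin mean, 9 with the adipose mean, 37 with the beta-actin ratio, and between 0 and 31 with 1 pool left out. The 1 member probe set became 0 without the filter, without the trend, with the Gapdh ratio, with the chromaffin mean and with probe sets averaged, 2 with quantile normalization and with the beta-actin ratio, and between 0 and 2 with 1 pool left out. Under the replicate block it was 2, Slc7a1 and Ass1. The deviations of pools of the same number correlated at 0.32, 0.00, 0.19 and -0.04. The highest correlation of hypoxic pools 1 to 4 with a normoxic pool of another number was 0.01, 0.16, 0.13 and 0.065. Pools 1 and 3 correlated best with their own number and pools 2 and 4 did not, so whether the numbers pair the pools is not settled. Of the further pathway probe sets 0 were called in each of these settings but the averaging of probe sets, under which they were not counted. For Slc7a1, the second probe set stayed above 0 in all 19 other settings (0.62 to 0.72) and passed in 8 of them, and Ass1 stayed above 0 in all 20 (0.65 to 1.26) and passed in 4. Some log2 differences changed sign. With probe sets averaged Asl was -0.025, but this mean takes in the probe set whose transcript record belongs to Hnrnpab. Arg1 was -0.040 with the Gapdh ratio and -0.13 with the chromaffin mean. Nos1 was 0.046 with quantile normalization, 0.032 with centring and 0.16 with the beta-actin ratio. Without a change of sign, Nos1 moved furthest with the chromaffin mean, to -0.46, and was -0.20 with the adipose mean. Sat2, at -0.28 in the main comparison, was 0.13 with the chromaffin mean. Aldh18a1, at 0.14 in the main comparison, was -0.0053 with the beta-actin ratio. Aldh4a1 was 0.0019 with quantile normalization, 0.028 with centring, 0.11 with the Gapdh ratio and 0.10 with the beta-actin ratio. With 1 pool left out, Asl ran between -0.013 and 0.15, Arg1 between -0.091 and 0.12, Nos1 between -0.16 and 0.15, Oat between -0.012 and 0.29, Glud1 between -0.065 and 0.17 and Aldh4a1 between -0.10 and 0.13. Apart from the averaging for Asl, the causes of these changes were not tested. Signal over background limits what can be said of Nos3 and of the third Slc7a1 probe set.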
